A study of Homo sapiens with 4 samples.

Results

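The genes described here are known from epicardium and mesothelium: WT1, TCF21, BNC1, UPK3B, UPK1B, MSLN, LRRN4, ITLN1 and PRG4. They were chosen by their symbols from a table of read counts, 9 of 60234 Ensembl genes, and the fraction contrast of the control culture was used in the choice, since PRG4 had been noticed for its low level in control GFP-positive cells relative to GFP-negative cells. Values of that contrast are therefore a description only. All 9 were matched to an Ensembl identifier in the table.

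NKX2.5:GFP hESCs, an established human embryonic stem cell line with GFP inserted at 1 allele of NKX2-5, were differentiated to the cardiac lineage as spin embryoid bodies. RA-treated cultures received 1 µM retinoic acid (RA) from day 4 to day 7 and control cultures received DMSO, the solvent, over the same days, after a cytokine cocktail that both shared. At day 31 by the series description, or after 30 days by the study's procedures, cells were sorted by fluorescence into GFP-positive and GFP-negative fractions, and total RNA of the 4 populations was sequenced, with 1 library for each. Reads numbered 4371101 (control) and 26222787 (RA) in the GFP-negative libraries, and 28643091 (control) and 28125727 (RA) in the GFP-positive libraries. The GFP-negative fraction was defined only by lack of fluorescence, so that it held whatever other cells the cultures had made. NKX2-5 itself was at 593 CPM and 463 CPM in control and RA-treated GFP-positive cells and at 14.5 CPM and 9.74 CPM in the GFP-negative cells, in the direction of the sort.

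Levels are CPM scaled with TMM factors, with exact Poisson 95% intervals, and ratios of 2 libraries carry Clopper-Pearson 95% intervals. Differences are on the scale of log2(CPM + 1), which understates the change of genes at low CPM. Reads are amplified copies and not independent molecules, so the intervals, given in parentheses where printed, cover counting error only. Having a single library in each group, the data allowed no replicate check and no test between conditions. RA and control also differ by culture, which cannot be told apart from the treatment. The 4 comparisons share libraries with each other. In such bulk samples, fewer cells of a type and less RNA per cell cannot be told apart.

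The epicardium is the mesothelial sheet that covers the heart. It arises from the proepicardium, and some of its cells undergo an epithelial to mesenchymal transition, move into the myocardium and become fibroblasts and mural cells of the coronary vessels. Mesothelium also lines the pleura, the peritoneum and the pericardial cavity, where its cells carry surface glycoproteins and secrete lubricants and lectins, and retinoic acid is made by the epicardium and is known to act on it.

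To show where transcription of the members begins, the 250 bases before the start of the canonical transcript were read from GRCh37 for each of them. Printed are the windows of ITLN1, the gene with the most reads, PRG4, which had the lowest level in GFP-positive cells, and TCF21, whose level was higher with RA in GFP-positive cells. ITLN1 is on the minus strand of chr1:160854971-160855220, PRG4 on the plus strand of chr1:186265161-186265410 and TCF21 on the plus strand of chr6:134210001-134210250. All 3 windows lie upstream of the genes and overlap no annotated UTR. Capitals mark the E-box letters CANNTG, a pattern that proteins of the basic helix-loop-helix family such as TCF21 can bind.
ITLN1: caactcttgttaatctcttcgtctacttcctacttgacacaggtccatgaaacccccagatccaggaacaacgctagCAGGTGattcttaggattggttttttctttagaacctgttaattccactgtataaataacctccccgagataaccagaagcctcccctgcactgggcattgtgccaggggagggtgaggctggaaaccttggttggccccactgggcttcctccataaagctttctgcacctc
PRG4: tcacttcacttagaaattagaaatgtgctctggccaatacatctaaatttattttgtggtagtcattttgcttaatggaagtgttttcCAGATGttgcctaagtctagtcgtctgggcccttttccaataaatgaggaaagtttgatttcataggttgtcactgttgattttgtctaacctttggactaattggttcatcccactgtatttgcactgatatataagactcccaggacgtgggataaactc
TCF21: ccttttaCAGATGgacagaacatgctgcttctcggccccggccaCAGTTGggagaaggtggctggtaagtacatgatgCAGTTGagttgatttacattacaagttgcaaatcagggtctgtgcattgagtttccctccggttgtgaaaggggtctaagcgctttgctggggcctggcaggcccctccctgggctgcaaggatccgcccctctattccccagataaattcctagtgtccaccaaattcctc

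On both strands, CANNTG was found in the windows of 9 of 9 members and in 56.4% of 19066 promoters of protein-coding genes of the same length. The other patterns searched were rarer. TATAAA, a pattern of the TATA box, was found for ITLN1 alone (9.03% of all promoters), 123 bases before the start. Variants of these letters were not searched. AGATAA, read by GATA factors, was found for ITLN1 and TCF21 (6.50%), and CATTCC, read by TEAD factors, for 2 of the 9 (9.78%). GCGTGGG, a core of WT1 and EGR1 sites, was found for BNC1 alone (7.86%), and AGGTCA, the half-site of nuclear receptors, for none of the 9 (9.74%). No matches of different patterns overlapped each other. A match is a description of letters and was not tested as a site, and no match says only that these letters are not in this window. GC content ran from 37.6% for PRG4 to 81.6% for BNC1, against a median of 63.6% over all promoters.

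The members lie on different chromosomes except ITLN1 and PRG4, which are both on chromosome 1. On GRCh37, WT1 (ENSG00000184937) spans chr11:32409321-32457110, TCF21 (ENSG00000118526) chr6:134210251-134216691 and BNC1 (ENSG00000169594) chr15:83924636-83953416. UPK3B (ENSG00000243566) spans chr7:76139842-76145839, UPK1B (ENSG00000114638) chr3:118892364-118923990, MSLN (ENSG00000102854) chr16:810734-818865 and LRRN4 (ENSG00000125872) chr20:6021192-6034706. ITLN1 (ENSG00000179914) spans chr1:160846330-160854970 and PRG4 (ENSG00000116690) chr1:186265411-186283699. All are protein coding. Because reads were counted without strand, bases shared with a gene of the opposite strand leave a count uncertain: TCF21 shares 863 exon bases with TARID (23.5% of its exon bases), PRG4 shares 670 with TPR (13.3%) and WT1 shares 47 with WT1-AS. UPK1B shares 33 exon bases with ENSG00000251012 on the same strand. UPK3B is uncertain for another reason, since 378 bases (16.8%) of its canonical transcript had a copy elsewhere at 97% identity or more, as had 129 bases of UPK1B, and reads with several locations were left out by the authors.

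WT1 encodes a zinc-finger transcription factor that marks the epicardium and is needed for it. In GFP-negative cells it was at 42.2 CPM (36.5 to 48.5) in the control and 22.9 CPM (21.1 to 24.8) with RA, and in GFP-positive cells at 11.6 CPM (10.4 to 12.9) and 2.88 CPM (2.27 to 3.60). Both GFP-negative libraries were thus above both GFP-positive libraries, and in each fraction the RA library was the lower. The ratio of RA to control was 0.543 (0.462 to 0.642) in GFP-negative cells and 0.248 (0.191 to 0.318) in GFP-positive cells. WT1-AS, the antisense transcript at its start, followed the same order of fractions, from 9.37 CPM in control GFP-negative cells to 0.673 CPM in RA-treated GFP-positive cells, with ratios of RA to control of 0.266 (0.179 to 0.400) and 0.371 (0.204 to 0.645).

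TCF21, a basic helix-loop-helix factor of epicardial cells and of the fibroblasts that derive from them, went another way. Its level was 23.4 CPM (19.3 to 28.2) in control and 17.0 CPM (15.4 to 18.7) in RA-treated GFP-negative cells, and 1.47 CPM (1.06 to 1.98) in control and 7.78 CPM (6.76 to 8.91) in RA-treated GFP-positive cells. The RA library was lower than control in GFP-negative cells, at a ratio of 0.725 (0.587 to 0.902), and higher in GFP-positive cells, at 5.31 (3.79 to 7.58). The fractions therefore lay closest in the RA culture, where GFP-negative cells had 2.18-fold (1.85 to 2.59) more than GFP-positive cells, the smallest such ratio among the 9 genes. TARID, the long noncoding RNA on the opposite strand, had 21, 57, 11 and 115 reads in the same order of libraries. It was also lower with RA in GFP-negative cells (ratio 0.497, 0.296 to 0.863) and higher in GFP-positive cells (11.2, 6.03 to 23.1), and which of these reads came from TCF21 was not tested.

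BNC1 encodes basonuclin 1, a zinc-finger protein of epithelia with the capacity to divide. Levels of 183 CPM (170.5 to 195) in control and 93.6 CPM (89.9 to 97.5) in RA-treated GFP-negative cells contrasted with 9.77 CPM (8.66 to 10.99) in control and 11.4 CPM (10.2 to 12.8) in RA-treated GFP-positive cells. BNC1 was lower with RA in GFP-negative cells (0.513, 0.474 to 0.555), whereas in GFP-positive cells the interval of the ratio included 1 (1.17, 0.989 to 1.38), so that no difference was detectable at this depth. Among the transcription factors, WT1 was therefore lower with RA in both fractions, BNC1 in GFP-negative cells, and TCF21 in GFP-negative cells with a higher level in GFP-positive cells.

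**Figure D1:**
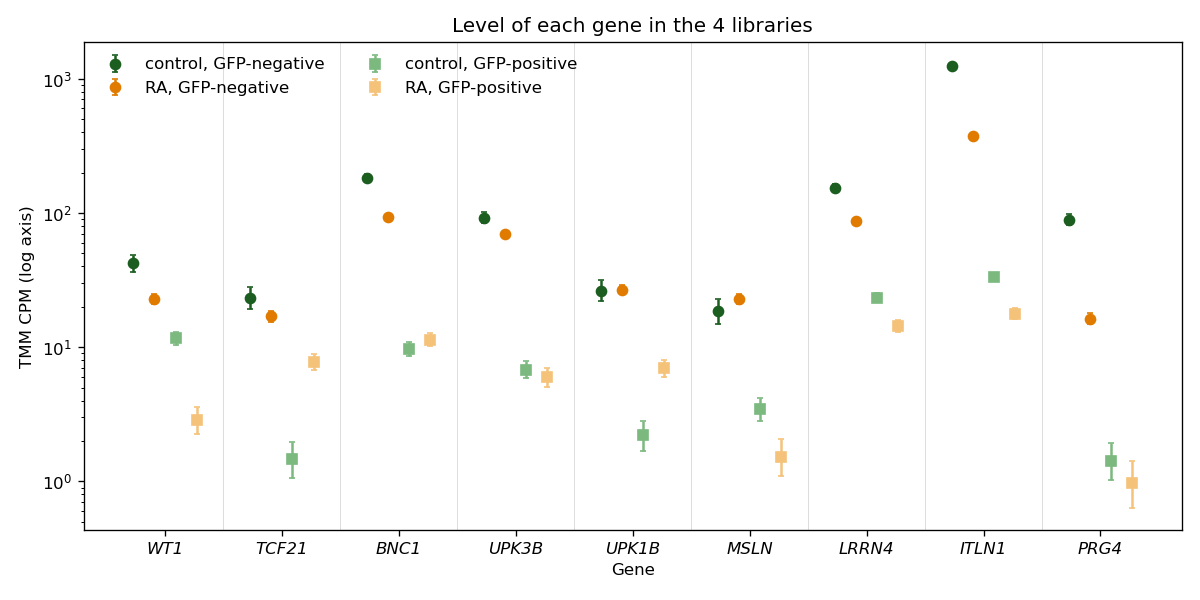
Level of the 9 genes in the 4 libraries, as TMM CPM on a log axis; points are single libraries (circles GFP-negative, squares GFP-positive) and bars are exact Poisson 95% intervals, which cover counting error only. Every circle lies above both squares of its gene, from ITLN1 at 1241 CPM in control GFP-negative cells down to PRG4 at 0.972 CPM in RA-treated GFP-positive cells.

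UPK3B encodes a uroplakin, a membrane protein of the plaques that cover urothelium, and is also known from mesothelium. It was at 92.2 CPM (83.7 to 101) and 70.0 CPM (66.8 to 73.3) in control and RA-treated GFP-negative cells and at 6.80 CPM (5.88 to 7.83) and 5.95 CPM (5.06 to 6.94) in control and RA-treated GFP-positive cells. With RA it was lower in GFP-negative cells (0.759, 0.683 to 0.845), and in GFP-positive cells a difference was not detectable (0.874, 0.704 to 1.08).

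UPK1B, the tetraspanin of the same plaques, was at 26.4 CPM (22.0 to 31.5) in control and 26.7 CPM (24.8 to 28.8) in RA-treated GFP-negative cells. In GFP-positive cells it was at 2.20 CPM (1.69 to 2.81) in the control and 6.99 CPM (6.03 to 8.07) with RA. The GFP-negative libraries could not be distinguished (1.01, 0.835 to 1.24; the log2 difference of 0.02 became -0.11 with library size alone, -0.07 with upper quartile factors and -0.10 without mitochondrial and the 10 most abundant genes). In GFP-positive cells UPK1B was higher with RA (3.18, 2.38 to 4.30), so that it and TCF21 were the members whose interval lay above 1 in that fraction.

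MSLN encodes mesothelin, a surface glycoprotein anchored in the membrane by lipid. Its levels of 18.5 CPM (14.8 to 22.9) in control and 22.8 CPM (21.0 to 24.7) in RA-treated GFP-negative cells did not differ detectably (1.23, 0.981 to 1.56). GFP-positive cells held 3.45 CPM (2.81 to 4.21) in the control and 1.53 CPM (1.1002 to 2.08) with RA, a ratio of 0.444 (0.301 to 0.645) on 41 and 99 reads. Unlike TCF21, MSLN had a higher fraction ratio in the RA culture (14.9-fold, 10.8 to 20.9) than in the control (5.36-fold, 3.97 to 7.23), as WT1 had (7.96-fold, 6.27 to 10.2 with RA and 3.63-fold, 3.03 to 4.34 in the control).

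LRRN4, a membrane protein with leucine-rich repeats, was at 154 CPM (143 to 165) in control and 87.6 CPM (84.0 to 91.3) in RA-treated GFP-negative cells, and at 23.4 CPM (21.6 to 25.2) and 14.4 CPM (13.0 to 15.9) in the GFP-positive cells in the same order. RA gave the lower library in both fractions, with ratios of 0.570 (0.524 to 0.620) in GFP-negative and 0.616 (0.542 to 0.699) in GFP-positive cells. No other member had ratios of RA to control as near to each other in the fractions, and its fraction ratios in control (6.58-fold, 5.91 to 7.32) and RA (6.09-fold, 5.46 to 6.80) had overlapping intervals.

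ITLN1 encodes intelectin 1, also called omentin, a secreted lectin of mesothelial cells and intestinal goblet cells. In GFP-negative cells it was at 1241 CPM (1209 to 1273) in the control and 372 CPM (365 to 379.7) with RA, on 5828 and 9550 reads. In GFP-positive cells it was at 33.2 CPM (31.1 to 35.4) in the control and 17.8 CPM (16.2 to 19.5) with RA. It was lower with RA in both fractions, by 3.33-fold (3.23 to 3.45) in GFP-negative and 1.87-fold (1.67 to 2.09) in GFP-positive cells. ITLN1 made up 66.4% (control) and 51.0% (RA) of the summed CPM of the 9 genes in GFP-negative cells, and 35.6% (control) and 25.5% (RA) in GFP-positive cells.

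PRG4 encodes lubricin, a secreted proteoglycan that lubricates joints and serous surfaces. Its levels were 89.0 CPM (80.7 to 97.97) in control and 16.3 CPM (14.8 to 17.97) in RA-treated GFP-negative cells, 1.43 CPM (1.03 to 1.94) in control GFP-positive cells and 0.972 CPM (0.635 to 1.42) in RA-treated GFP-positive cells. The GFP-negative libraries had 418 and 419 reads, control first, the same number but for 1 read in libraries whose totals differed 6-fold. The level with RA was thus 5.45-fold (4.75 to 6.26) lower, and PRG4 had the 40th lowest log2 difference of 11606 genes that reached 10 CPM in a GFP-negative library. This comparison shares the control GFP-negative library with the contrast used to choose PRG4. In GFP-positive cells the counts of 41 and 26 reads gave no detectable difference (0.679, 0.399 to 1.14). TPR on the opposite strand varied far less, between 119.9 CPM and 150.4 CPM over the 4 libraries.

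Compared between genes per kilobase of canonical transcript, ITLN1 was the most abundant in control GFP-negative cells, at 1041 CPM per kb. LRRN4 (52.4), UPK3B (41.0) and BNC1 (39.9) followed, then TCF21 (18.3), PRG4 (17.6), WT1 (13.9), UPK1B (13.0) and MSLN (8.43). In RA-treated GFP-positive cells, per kb, ITLN1 was again first (14.9), TCF21 (6.08) came next, and PRG4 was last (0.193). The order depended on the length used. Per kb of all annotated exon bases, ITLN1 kept the first place in the 4 libraries, but in control GFP-negative cells WT1 came last (5.18), and in RA-treated GFP-positive cells UPK1B (3.10) stood above TCF21 (2.11).

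In the control culture all 9 genes were lower by 2-fold or more in the GFP-positive fraction, where 17.0% of 18786 genes that reached 1 CPM in a compared library were, and nothing is read from this count. The median log2 difference was -3.31, against 0.03 over all these genes, and the members ran from -1.77 for WT1 to -5.21 for PRG4. As ratios, GFP-negative cells had 62.2-fold (45.1 to 88.0) more PRG4, 37.4-fold (34.9 to 40.0) more ITLN1 and 18.7-fold (16.3 to 21.5) more BNC1. Smaller ratios were those of WT1 (3.63-fold, 3.03 to 4.34), MSLN and LRRN4. Of 4248 genes that reached 50 CPM in control GFP-negative cells, PRG4 had the lowest ratio of GFP-positive to GFP-negative cells, which is the value it had been noticed for. Of 10822 genes that reached 10 CPM there it was the 19th lowest, and by log2 difference PRG4 and ITLN1 were the lowest and the next of 11806 genes that reached 10 CPM in a compared library.

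In the RA culture the 9 genes were again at least 2-fold lower in GFP-positive cells, where 14.1% of 18111 genes were. PRG4, at 0.972 CPM in these GFP-positive cells, passed the filter only through GFP-negative cells and could only be lower. TCF21, at -1.04, was nearest to the threshold and no longer past it under 4 of the alternatives of processing. The median log2 difference was -2.93, against 0.01 over all genes, and ITLN1 (-4.31) was the 4th lowest of 11850 genes at the same minimum. PRG4 (-3.14) was the 141st lowest there. The GFP-positive level, as a share of the GFP-negative level, had a median over the 9 genes of 7.38% in the control and 12.2% with RA, from 1.61% for PRG4 to 27.6% for WT1 in the control, and from 4.78% for ITLN1 to 45.8% for TCF21 with RA.

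**Figure D2:**
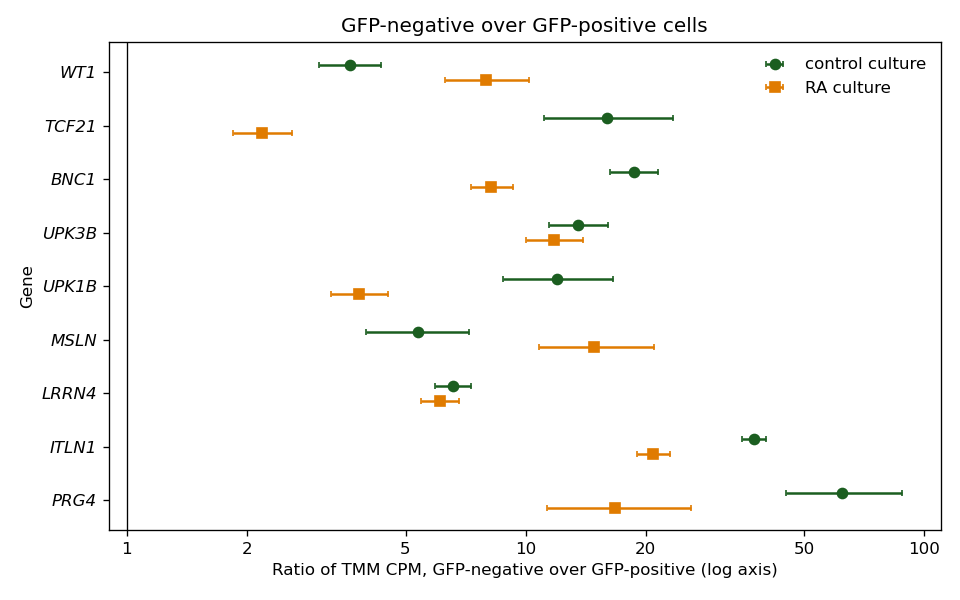
Ratio of TMM CPM in GFP-negative over GFP-positive cells for the 9 genes on a log axis, in the control culture (circles) and the RA culture (squares), 1 library per population; bars are Clopper-Pearson 95% intervals and the line marks 1. All ratios exceed 1, and the point values of 7 of the 9 were lower with RA, among them PRG4 (62.2-fold, 45.1 to 88.0 in control, 16.8-fold, 11.3 to 26.0 with RA) and TCF21 (16.0-fold, 11.1 to 23.4 and 2.18-fold, 1.85 to 2.59), whereas those of MSLN and WT1 were higher. Of these 7, UPK3B (13.6-fold, 11.4 to 16.1 and 11.8-fold, 10.0 to 13.9) and LRRN4 (6.58-fold, 5.91 to 7.32 and 6.09-fold, 5.46 to 6.80) had overlapping intervals.

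The cardiomyocyte markers had the opposite order. Of these 9, which include NKX2-5, whose reporter defined the sort, all were at least 2-fold higher in GFP-positive cells in both cultures, where 2646 of 18786 genes were in the control and 1847 of 18111 with RA. Their GFP-negative level was 2.43% (MYH7) to 13.9% (RYR2) of the GFP-positive level in the control and 1.61% (MYH6) to 7.27% (RYR2) with RA. The highest of them, MYH6, was at 6782 CPM in control GFP-positive and 229 CPM in control GFP-negative cells. How far GFP-negative cells carried over in the sort contribute to the low values of the 9 genes in GFP-positive cells was not tested.

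**Figure D3:**
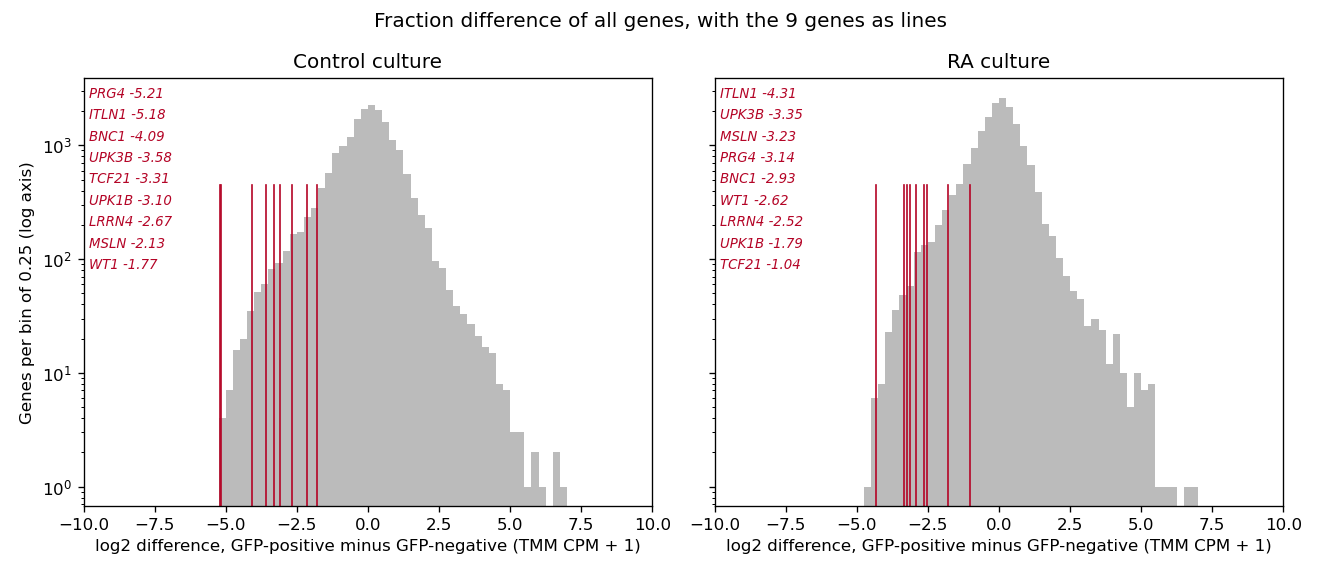
Distribution of the log2 difference (TMM CPM + 1) between GFP-positive and GFP-negative cells over all genes that reached 1 CPM in a compared library, in bins of 0.25 with a log axis of gene number, for the control (left) and RA (right) cultures; lines mark the 9 genes with their values. They lie in the left part of both distributions, between -5.21 and -1.77 in the control and between -4.31 and -1.04 with RA.

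Comparing RA with control within the GFP-negative fraction, 2 of the 9 genes, PRG4 (-2.38) and ITLN1 (-1.73), were at least 2-fold lower and none was 2-fold higher, where 7.61% of 18642 genes were at least 2-fold lower. BNC1 (-0.96), WT1 (-0.85) and LRRN4 (-0.80) lay short of that threshold, as did TCF21 (-0.44) and UPK3B (-0.39). The intervals of these 7 ratios lay below 1, and those of UPK1B and MSLN included it. The median was -0.80, against 0.04 over all genes, a fold of 1.75. Library size alone shifted the median of all genes by -0.13 and that of the 9 genes to -0.94, so that the members' distance from all genes changed little. Summed over the 9 genes the level was 1869 CPM in the control and 729 CPM with RA, and without ITLN1 it was 628 CPM and 357 CPM. The control library of this comparison was the shallowest, and with all libraries thinned to its depth the median was -0.89.

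In GFP-positive cells the members divided. TCF21 (1.83) and UPK1B (1.32) were at least 2-fold higher with RA, where 5.09% of 17465 genes were, and WT1 (-1.70) was at least 2-fold lower, where 2.12% of them were. ITLN1 (-0.86), MSLN (-0.81) and LRRN4 (-0.66) were lower with intervals below 1 but short of 2-fold on the log2(CPM + 1) scale. Without the added 1 CPM, MSLN was 2.25-fold (1.55 to 3.33) lower, and the intervals of UPK3B, PRG4 and BNC1 included 1. WT1 had the 45th lowest difference of 11186 genes that reached 10 CPM in a GFP-positive library. The median over the 9 genes was -0.30, against 0.01 over all genes, and as the members went both ways it describes none of them well. Under the thinning, MSLN (-1.45) and LRRN4 (-1.09) also passed the threshold. With a pseudocount of 5 CPM only WT1 (-1.08) did, as a larger pseudocount lessens differences at low CPM by construction.

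**Figure D4:**
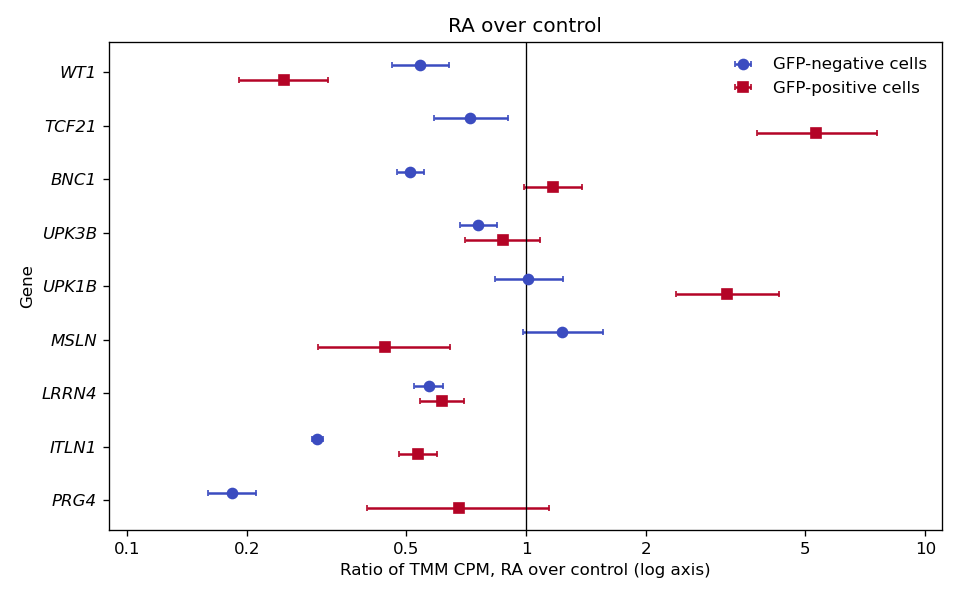
Ratio of TMM CPM with RA over control for the 9 genes on a log axis, in GFP-negative cells (circles) and GFP-positive cells (squares), 1 library per population; bars are Clopper-Pearson 95% intervals and the line marks 1. PRG4 and ITLN1 are lowest in GFP-negative cells, WT1 is lowest in GFP-positive cells, and TCF21 and UPK1B lie to the right of 1 in GFP-positive cells.

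The genes whose 4 values were most like those of WT1 were SOX6, PTPRQ, SH3GL3, FYB2 and PRODH, by the Euclidean distance of log2(CPM + 1) centred on each gene's own mean, of 12406 genes that reached 10 CPM in any library. SOX6, at a distance of 0.34, was at 44.1 (control) and 18.3 CPM (RA) in GFP-negative and at 9.56 (control) and 2.99 CPM (RA) in GFP-positive cells. Of the other members, LRRN4 was the nearest to WT1 (rank 20), followed by MSLN (rank 81), and ITLN1 was the farthest (rank 6176). Nearest to PRG4 were PKHD1L1, SLC34A2, SFRP2, CHI3L1 and NTN1. PKHD1L1, at a distance of 0.33, was at 238, 61.0, 6.98 and 4.79 CPM in the same order. ITLN1 was the 7th nearest gene to PRG4 and BNC1 the 28th, whereas TCF21 was the farthest member (rank 550). With 4 libraries such likeness describes these values and says nothing of shared function.

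A list of 20 other genes known from epicardium or mesothelium was set beside the members. In the control culture 15 of 19 genes that passed the filter were at least 2-fold lower in GFP-positive cells (median -3.16), and in the RA culture 16 of 20 (median -1.96). Over all genes, 3191 of 18786 were lower in the control and 2546 of 18111 with RA. HAS1, a hyaluronan synthase, differed most in the control (-4.90), and KRT8, a keratin of simple epithelia and the most abundant gene of the list over the 4 libraries, was at 762 CPM in control and 1184 CPM in RA-treated GFP-negative cells. In control GFP-negative cells C3 was above KRT8, at 1602 CPM. With RA the GFP-negative cells had 2 genes at least 2-fold higher and 4 lower (median -0.28), from -1.098 for RSPO1, a secreted enhancer of WNT signalling, to 2.16 for MUC16, a membrane mucin with 15 reads in the control and 455 with RA. Over all genes, 1620 of 18642 were at least 2-fold higher and 1418 lower in this comparison, which also holds for the lists that follow.

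In GFP-positive cells 6 of 19 genes of this list were at least 2-fold higher with RA and 1 was lower (median 0.53), where 889 of 17465 genes were higher and 371 lower. EFEMP1, a matrix protein, had the largest difference (3.08; 190 reads in the control and 1702 with RA). TBX18, a T-box factor of the proepicardium, was the lowest (-1.33), as WT1 was among the members. KLK11 had 0 (control) and 9 reads (RA) in GFP-positive and 4 (control) and 30 reads (RA) in GFP-negative cells. It passed the filter only where the last of these was compared, with ratios of 0.288 (0.120 to 0.622) for GFP-positive over GFP-negative cells and 1.37 (0.484 to 5.36) for RA over control. ALDH1A2, the enzyme that makes retinoic acid in the epicardium, followed TCF21, with a ratio of RA to control of 0.695 (0.639 to 0.757) in GFP-negative and 4.15 (3.63 to 4.76) in GFP-positive cells; it was named for this pattern after its values were seen.

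Genes of the epithelial to mesenchymal transition, of fibroblasts and of smooth muscle, the cells that epicardium gives rise to, were set beside the 9 genes next. Of 16 such genes, 9 were at least 2-fold higher and none was lower with RA in GFP-negative cells (median 1.13), and 13 were higher and none lower in GFP-positive cells (median 1.60). Over all genes, 1620 of 18642 were higher in GFP-negative and 889 of 17465 in GFP-positive cells. TWIST1 had the largest difference in GFP-negative cells (2.64) and PDGFRB in GFP-positive cells (2.36), whereas ZEB1 was the lowest in both (-0.03 and -0.33). Across the fractions, 12 of 16 were at least 2-fold lower in GFP-positive cells in the control and 12 with RA, where PDGFRA alone was higher (medians -2.50 and -2.16), with LUM the lowest in both cultures. Over all genes, 3191 of 18786 were lower in the control, and 2546 of 18111 lower and 1847 higher with RA. ITGA4, below 1 CPM in control GFP-positive cells, could only be lower there than in GFP-negative cells. For the same reason it could only be higher with RA in GFP-positive cells. COL3A1, the most abundant, went from 15391 CPM to 24128 CPM with RA in GFP-negative cells and from 2247 CPM to 8758 CPM in GFP-positive cells. Other mesenchymal cells make these products as well, and the source of their RNA was not tested.

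**Figure D5:**
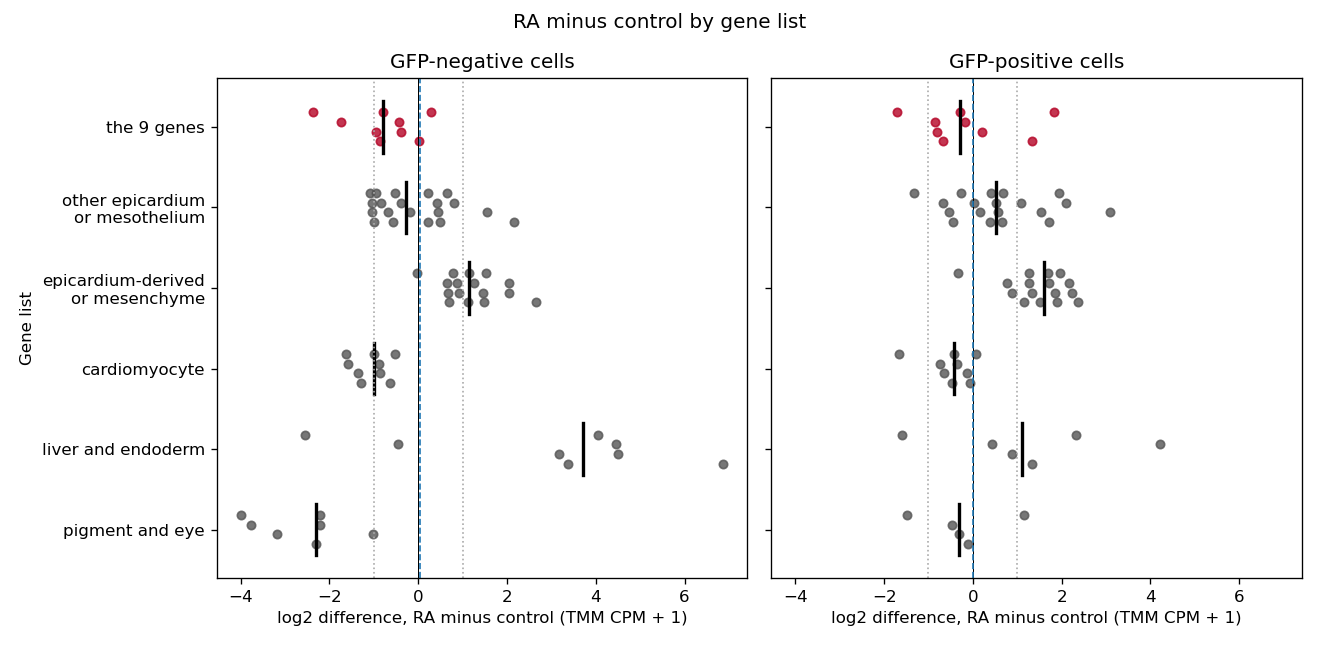
Difference of log2(TMM CPM + 1), RA minus control, in GFP-negative (left) and GFP-positive cells (right), each point a gene of the list named at the left that reached 1 CPM in a compared library; black bars are list medians, the dashed line the median of all genes and dotted lines 2-fold. The 9 genes have medians of -0.80 and -0.30, and the list of epicardium-derived or mesenchyme genes has medians of 1.13 and 1.60.

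Relatives of the members by gene family were also measured. Of 16 such genes, 6 of 12 that passed the filter were at least 2-fold lower in GFP-positive cells of the control and TCF15 was higher (median -1.06) and 8 of 11 with RA (median -1.45). Over all genes, 3191 of 18786 were lower and 2646 higher in the control, and 2546 of 18111 lower with RA. Of the lower genes, ITLN2, LRRN4CL and MSC in the control, and UPK2, ITLN2, LRRN4CL and TCF15 with RA, were below 1 CPM in GFP-positive cells. These could only be lower, and TCF15, below 1 CPM in control GFP-negative cells, could only be higher in the control. With RA, 3 of 13 were higher and 1 lower in GFP-negative cells (median -0.43). In GFP-positive cells 2 of 7 were higher with RA and 2 lower (median 0.58). TCF15 and UPK2 in control GFP-negative cells, and MSC in control GFP-positive cells, were below 1 CPM and could only be higher with RA. TCF15 was below 1 CPM in RA-treated GFP-positive cells and could only be lower there. Over all genes, 1620 of 18642 were higher and 1418 lower in GFP-negative cells, and 889 of 17465 higher and 371 lower in GFP-positive cells. BNC2, the other basonuclin, had the lowest fraction difference of the family in both cultures (-4.21 and -2.98), beside -4.09 and -2.93 for BNC1. Its level in GFP-negative cells was 40.0 CPM in the control and 22.0 CPM with RA. LRRN1, a relative of LRRN4, was higher with RA in GFP-positive cells (1.54) and LRRN3 lower in both fractions (-1.07 and -1.55), and TCF15, a relative of TCF21, had 1, 102, 84 and 22 reads. EGR1, a zinc-finger relative of WT1 and the most abundant of the list, ran from 855 to 2143 CPM. MSC had 0 reads in control GFP-positive cells and 30 with RA (10.7-fold higher with 3 reads in place of 0), MSLNL had 0 in RA-treated GFP-positive cells, and TCF23, TCF24 and UPK3BL each had 0 in at least 1 library and no more than 10 in any.

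Markers of other cells that use some of the 9 genes were measured to see what moved with them. Of 8 urothelium markers, KRT20 had 0 reads in all 4 libraries, and UPK1A, UPK2 and UPK3A, the uroplakins that form the plaques with UPK1B, had at most 111 reads. KRT5 was the most abundant, and the list summed to 34.3, 57.0, 6.39 and 13.4 CPM in the libraries ordered control then RA, GFP-negative before GFP-positive. At least 2-fold lower in GFP-positive cells were 3 of 6 in the control (3191 of 18786 over all genes) and 5 of 6 with RA (2546 of 18111). Only KRT5 in the control, and KRT5 and PPARG with RA, reached 1 CPM in GFP-positive cells. The other genes that passed the filter could only be lower there. With RA, 2 of 7 were higher in GFP-negative cells (median 0.29), with PPARG the highest. UPK2, below 1 CPM in the control, could only be higher. In GFP-positive cells, where UPK1B was higher with RA, 2 passed the filter, with KRT5 at 0.83 (median 1.13). PPARG (1.42) was at least 2-fold higher, where 889 of 17465 genes were. It was below 1 CPM in the control and could only be higher. KRT5 had 108, 682, 104 and 193 reads beside 124, 686, 63 and 187 of UPK1B in the same order. UPK3B and UPK1B thus had more reads in each library than any of these 3 uroplakins, and the part of urothelial cells in their values was not tested.

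Intestinal goblet cells also make intelectin. SPINK4 had 0 reads in all libraries, and in control GFP-negative cells, where ITLN1 had 5828 reads, MUC2, TFF3, SPINK4 and CLCA1 had 0, leaving 21 reads of ITLN2, its paralog. With RA, where ITLN1 was lower, TFF3 had 123 reads (7.50-fold higher with 3 reads in place of 0), CLCA1 98 (5.98-fold on the same basis) and MUC2 23, below 1 CPM. ITLN2 was lower with RA, as ITLN1 was, at a ratio of 0.436 (0.257 to 0.764). The markers thus went both ways, and the part of goblet cells in the ITLN1 values was not tested. The 5 goblet genes summed to 4.47, 11.5, 1.05 and 0.710 CPM in the order of libraries above. Of them, 2 of 3 were higher with RA in GFP-negative cells (median 2.27). These, TFF3 and CLCA1, had 0 reads in the control, passed the filter only through the RA library and could only be higher. In GFP-positive cells no goblet gene passed the filter. None reached 1 CPM in a GFP-positive library, so that those which passed the filter between fractions, 1 in the control and 3 with RA, could only be lower in GFP-positive cells. FCGBP was not analysed here.

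WT1 is used in kidney and gonad as well. Of 10 such markers, FOXL2 had 0 reads in all libraries and PAX8 at most 3, and NR5A1 had 0 in RA-treated GFP-positive cells. NPHS1, which encodes nephrin, was however at 48.3, 15.7, 5.97 and 2.06 CPM in the order above, with ratios of RA to control of 0.326 (0.276 to 0.385) in GFP-negative and 0.345 (0.2496 to 0.470) in GFP-positive cells beside 0.543 (0.462 to 0.642) and 0.248 (0.191 to 0.318) for WT1. The list, in which AMH was the most abundant over the 4 libraries and NPHS1 in control GFP-negative cells, summed to 96.7, 44.6, 31.5 and 32.05 CPM. With RA 3 of 5 were lower in GFP-negative cells (median -1.56, PAX2 lowest at -1.96). In GFP-positive cells EYA1 was higher (1.59) and NPHS1 lower, where 889 of 17465 genes were higher and 371 lower. In GFP-positive cells 3 of 6 were lower than in GFP-negative cells in the control, with SIX2 the lowest (-3.77), and 3 of 5 with RA, where EYA1 was higher (1.37). Over all genes, 3191 of 18786 were lower in the control, and 2546 of 18111 lower and 1847 higher with RA. SIX2 and PAX2 were below 1 CPM in GFP-positive cells of both cultures. They passed the filter only through GFP-negative cells and could only be lower. The part of renal or gonadal cells in the WT1 values was not tested.

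PRG4 is best known from joints. Of 8 cartilage and joint markers 6 were lower and 1 higher in GFP-positive cells of the control (median -2.14), and 5 were lower and 1 higher with RA (median -1.97). Over all genes, 3191 of 18786 were lower and 2646 higher in the control, and 2546 of 18111 lower and 1847 higher with RA. ACAN, which encodes aggrecan, was the lowest in both (-3.13 and -3.33), while COL2A1, the most abundant, was highest in control GFP-positive cells, at 1195 CPM. ACAN and COMP in both cultures, and CILP and MATN3 in the control, were below 1 CPM in GFP-positive cells. They passed the filter only through GFP-negative cells and could only be lower. Between RA and control GFP-negative cells, where PRG4 was 5.45-fold (4.75 to 6.26) lower, 2 were higher and 1 lower (median 0.38), from COL9A1 (-1.52) to SOX9 (1.77). In GFP-positive cells 2 of 6 were higher and 1 lower with RA, where 889 of 17465 genes were higher and 371 lower. CILP and MATN3, below 1 CPM in the control, could only be higher there. The sums were 581, 408, 1216 and 581 CPM, and the part of such cells in the PRG4 values was not tested.

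Markers of further cell types also differed between the GFP-negative libraries, and the part of such cells in the lower levels of the 9 genes was not tested. Of 8 liver and endoderm markers 6 were at least 2-fold higher and 1 lower with RA (median 3.71). APOB and FOXA2 were below 1 CPM in the control and could only be higher. The list summed to 97.1 CPM in the control and 759.8 CPM with RA, with AFP at 2.98 CPM and 465 CPM of these. TTR, the lower gene (-2.55), was at 73.0 CPM in the control and 11.7 CPM with RA. FOXA2 had 0 reads in both control libraries and FGB in control GFP-positive cells. All 7 pigment and eye markers were lower with RA (median -2.31), and their sum, led by PMEL, went from 749 CPM to 97.3 CPM, against 1869 CPM to 729 CPM for the 9 genes. Of 7 neural markers 6 passed the filter, 3 of them lower and 1 higher (median -0.65; sums over the 7 of 327 CPM and 259 CPM), and of 6 endothelial markers 1 was higher and none lower (median 0.51; sums 361 CPM and 405 CPM). The 9 cardiomyocyte markers were lower there as well (median -0.998, 4 at least 2-fold), and PECAM1 was not analysed here. Of the pigment and neural genes counted as lower, TYR and ELAVL4 were below 1 CPM in RA-treated GFP-negative cells and could only be lower.

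In GFP-positive cells the same lists had lower sums, apart from the cardiomyocyte and, with RA, the neural markers. Over all genes, 889 of 17465 were at least 2-fold higher and 371 lower with RA in this fraction. Of the 9 cardiomyocyte markers 1, MYH7, was at least 2-fold lower with RA (median -0.42). Liver and endoderm markers summed to 13.4 CPM in the control and 46.7 CPM with RA (3 of 6 higher, 1 lower, median 1.101). Those higher, AFP, APOB and FGB, were below 1 CPM in the control, and TTR, the lower, was below it with RA. The filter thus set the direction of all of these calls. Pigment and eye markers summed to 104 CPM and 87.8 CPM (1 higher and 1 lower of 5, median -0.32). Neural markers summed to 278 CPM and 419 CPM, with STMN2 33.8-fold (24.3 to 48.5) higher and SOX1 at 0 reads with RA, and endothelial markers to 88.1 CPM and 108 CPM, with VWF at 0 reads in the control. Beside these, the 9 genes summed to 93.4 CPM in control and 69.7 CPM in RA-treated GFP-positive cells, and which cells held these reads was not tested.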

How the data were processed

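RNA of 4 sorted populations was measured, 1 library each. The authors trimmed the paired reads, mapped them to a modified hg19 with GSNAP, sorted the alignments with SAMtools 0.1.18, kept reads with a single location and counted them per Ensembl gene with HTSeq 0.6.1p1 without using strand; these steps and versions are those the study's procedures and the labels give. The deposited values are these raw read counts, with no normalization by the authors. The Ensembl release is not given in the sources used here. The libraries had been made strand-specific, but the counts do not separate strands.

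CPM were computed from library totals multiplied by TMM factors (0.9509 for RA-treated GFP-positive, 0.9786 for RA-treated GFP-negative, 1.00 for control GFP-positive and 1.074 for control GFP-negative cells) in edgeR 4.0.16 under R 4.3.3. Genes that reached 1 CPM in a compared library were kept, and 2-fold means a difference of at least 1 in log2(CPM + 1). A gene below 1 CPM in 1 of the libraries compared passed only through the other, so that the filter set its direction. Among the members this held for PRG4 where RA-treated GFP-positive cells were compared, at 0.972 CPM. A floor of 3 reads corresponded to 0.639 CPM in control GFP-negative cells and 0.105 to 0.117 CPM in the others. Mitochondrial genes took 5.56% to 14.9% of the reads. Alternatives were library size alone, DESeq2 1.42.0 size factors, upper quartile factors, TMM factors of each pair, library size without mitochondrial genes and without the top 10 genes, a pseudocount of 0.25 or 5 CPM, thinning to 4371101 reads, other filters and a 4-fold threshold. The procedure was tested on simulated data.

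The members and the 12 further lists were chosen with earlier results of these data known. Named are all members, of each list its most abundant gene, its extreme differences in a comparison described and its genes without reads, the 5 genes nearest to WT1 and to PRG4, and NKX2-5. Other genes were chosen after their values were seen, and 1 gene and 1 promoter are not reported here. Symbols were matched by Ensembl identifier (55538 of 60234 genes), and gene models are GENCODE lifted to GRCh37, whose sequence gave the promoters. Levels per kb use the canonical transcript. Copies were sought at 97% identity over at least 75 bases. Python 3.11.15 and matplotlib 3.10.9 made the figures.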

Additional observations from a re-analysis of the deposited data

Results flagged for a closer look

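TCF21 was the member that was lower with RA in one fraction and higher in the other, with both intervals away from 1. As RA minus control in log2(CPM + 1), it differed by -0.44 in GFP-negative cells and 1.83 in GFP-positive cells. Among the other genes known from epicardium or mesothelium, ALDH1A2 (-0.52 in GFP-negative and 1.94 in GFP-positive cells), HAS1 (-0.68 and 1.53), C3 (-1.04 and 0.53) and SLPI (-0.95 and 0.40) went the same ways. KRT19 went the reverse way, with 0.50 in GFP-negative and -0.55 in GFP-positive cells. Because each population has 1 library, the difference between fractions was not tested for these genes. The differences share no library between the fractions, but the cells of both fractions came from the same kinds of culture, and a difference between cultures cannot be told apart from one of RA.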

How the results depend on the processing

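The medians of the 9 genes, or of those left by the filter, kept their sign under all alternatives run. They ran from -3.71 to -2.48 for the fractions of the control culture, from -3.01 to -2.09 for those of the RA culture, from -0.94 to -0.76 for RA in GFP-negative cells and from -0.76 to -0.11 for RA in GFP-positive cells. With a pseudocount of 5 CPM the fraction medians were -2.48 in the control and -2.09 with RA, as a larger pseudocount lessens differences by construction. With library size alone the median for RA in GFP-negative cells was -0.94. The number of the 9 genes past 2-fold stayed at 9 for the fractions of the control culture and between 8 and 9 for those of the RA culture. With a threshold of 4-fold, 8 passed in the control culture and 7 in the RA culture. For RA in GFP-negative cells the number past 2-fold was 2 or 3, with BNC1 the added gene, and 1 at 4-fold. In GFP-positive cells it was 3 in most settings, 4 with a pseudocount of 0.25 CPM, 1 with a pseudocount of 5 CPM, 5 of 8 genes left with thinned libraries, 1 of 4 left with a filter of 10 CPM, and 0 at 4-fold. The cause of the count under thinning was not tested. Of 288 differences of single members under 8 alternatives, 248 stayed within the counting interval and 40 moved further, and 3 changed sign, all of UPK1B in GFP-negative cells, where its difference was 0.02. The control GFP-negative library, the shallowest, limits what can be seen there: its floor was 0.639 CPM. With 1 library per group, none could be left out.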
